A study of Homo sapiens with 6 samples.

Results

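The genes described here encode the machinery that licenses replication origins, unwinds DNA and copies it. They are 46 named genes for the origin recognition complex, the loading factors, the MCM helicase, CDC45 and GINS, the kinase that fires origins, the replicative polymerases, the sliding clamp and its loader, flap removal and ligation, the single-strand binding protein RPA and the chromatin assembly factor CAF-1. They were taken as a list by gene symbol, chosen with earlier results of these data known. All 46 matched a row among the 14456 genes of the table. RNA was measured in C4-2 cells, a castration-resistant prostate cancer line derived from LNCaP, grown in medium with fetal bovine serum. One group received IPI-9119, an inhibitor of fatty acid synthase, at 100 nM for 6 days, and the other 0.1% DMSO, the vehicle, with 3 polyA-selected libraries in each group. All libraries come from 1 cell line, and nothing in the labels tells if replicates were grown separately. The p-values therefore describe only how much these libraries varied, which may be technical.

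Origins are licensed in G1, when the origin recognition complex, CDC6 and CDT1 load the MCM2-7 ring onto DNA. In S phase the kinase CDC7 with its activator DBF4 and the loading of CDC45 and GINS turn that ring into an active helicase. Polymerase alpha-primase then lays down primers, polymerases epsilon and delta extend them, the clamp PCNA holds the polymerases on DNA, and CAF-1 places histones behind the fork. Many of these genes are known targets of E2F transcription factors, and their RNA rises as cells enter S phase. In RNA from whole cultures, a larger share of cells in S phase and more RNA per cell cannot be told apart.

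The libraries held 19090749 to 23448035 reads, and the reads of a member in a library ran from 26 to 5149. The IPI-9119 libraries were the shallower ones, at 19090749 to 20422882 reads against 21952620 to 23448035 with DMSO, a difference that the authors' scaling takes out of the normalised counts used below. The libraries of the groups separated along the first principal component, which held 83.0% of the variance. The prostate luminal markers KLK3 and FOLH1 were present in all 6 libraries, KLK3 lower with IPI-9119 (log2 fold change -0.95) and FOLH1 higher (0.43). Markers of other cell types were at most faint, with a row for 0 of 4 leukocyte, 0 of 3 basal, 1 of 3 endothelial and 2 of 4 fibroblast genes. The summed level of the fibroblast markers was 78.3 to 95.5 with DMSO and 93.5 to 117 with IPI-9119, and the endothelial sum, which is VWF alone, was 44.3 to 48.7 and 39.0 to 60.5. Their part in the results was not tested.

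Promoter sequence was looked at because these genes are textbook E2F targets. The RefSeq table (GRCh38.p14) gave a window from 250 bases before to 50 after the start for 40 of the 46 genes, all but MCM4, MCM5, GINS4, POLD3, RPA2 and RPA3, and where a gene had several windows the one listed first was read. The E2F letters searched were TTTCCCGC, TTTCGCGC, TTTGCCGC and TTTGGCGC on both strands. They occurred in 18 of the 40 windows (45%), against 5.41% of the 10676 windows of genes tested and 3.33% of all 27305 windows. Among the replication genes that rose (by the test below) 15 of 31 windows held them, and among the others 3 of 9. Split instead at a rise of at least 2-fold, 8 of 18 windows (44.4%) held them, and 10 of 22 (45.5%) of the rest. Of the windows of all genes called higher 6.29% held them. The CCAAT box, searched as CCAAT on both strands, occurred in 22 of 40 windows (55%) against 37% of the windows of genes tested. It was in 15 of 31 among the genes that rose and 7 of 9 among the others. At the 2-fold split it was in 12 of 18 and in 10 of 22 of the rest. Matches to the E2F letters overlapped each other in MCM2 and MCM6, and in MCM7 an E2F match shared 1 base with a CCAAT box. A match is a description of these letters only.

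The 250 bases before the start are printed 5′ to 3′ for 4 genes, with matches to the E2F letters in capitals. The upstream bases of 27 of the 40 windows hold more than 30 bases of an exon in GENCODE, and none of those is printed. MCM6 is shown as a gene that rose and holds matches, and POLE and POLA1 as genes that hold a match and did not rise. CDC7 is shown as a gene that rose and has no exact match in its whole window. Near matches were not searched. The printed CDC7 bases hold gcgggaag, which read on the other strand differs from TTTCCCGC only in the first base.
MCM6, chr2:135876444-135876693, minus strand: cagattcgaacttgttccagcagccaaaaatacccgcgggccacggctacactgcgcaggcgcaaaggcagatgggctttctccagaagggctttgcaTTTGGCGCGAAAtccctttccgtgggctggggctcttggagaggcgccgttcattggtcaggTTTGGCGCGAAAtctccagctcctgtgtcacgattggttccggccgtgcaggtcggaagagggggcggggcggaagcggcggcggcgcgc
POLE, chr12:132687343-132687592, minus strand: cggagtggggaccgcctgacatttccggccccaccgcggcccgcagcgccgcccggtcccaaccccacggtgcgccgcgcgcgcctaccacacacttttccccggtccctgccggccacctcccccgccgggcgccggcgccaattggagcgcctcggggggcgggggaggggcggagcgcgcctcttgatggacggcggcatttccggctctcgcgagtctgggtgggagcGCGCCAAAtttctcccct
POLA1, chrX:24693668-24693917, plus strand: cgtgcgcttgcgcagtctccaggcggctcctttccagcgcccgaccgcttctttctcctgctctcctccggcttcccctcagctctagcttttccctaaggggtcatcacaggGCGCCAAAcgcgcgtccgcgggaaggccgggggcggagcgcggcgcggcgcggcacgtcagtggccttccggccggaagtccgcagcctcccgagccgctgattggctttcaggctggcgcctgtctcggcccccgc
CDC7, chr1:91500601-91500850, plus strand: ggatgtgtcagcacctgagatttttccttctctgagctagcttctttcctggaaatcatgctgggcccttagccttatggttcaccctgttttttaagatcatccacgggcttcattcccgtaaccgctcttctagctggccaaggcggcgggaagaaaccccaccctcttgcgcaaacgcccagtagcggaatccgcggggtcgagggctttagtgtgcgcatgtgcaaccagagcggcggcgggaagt

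The question was whether RNA from these genes differed between cells given the inhibitor and cells given vehicle. Of the 46 genes 36 were higher with IPI-9119, 3 were lower (POLE, RFC1 and CHAF1A) and 7 did not pass the test (ORC2, ORC3, ORC4, POLA1, POLD1, RPA1 and RPA2). Genes were called at an adjusted p under 0.05 in limma over all 14437 genes tested, with Benjamini-Hochberg adjustment. Over all those genes 31.3% were higher, 31.4% lower and 37.2% not past, so 78.3% of the replication genes stand beside 31.3%. The median log2 fold change of the 46 genes was 0.89, against 0.0017 over all genes tested, and fold changes are on the scale log2(normalised count + 1). A rise of at least 2-fold was found for 20 of the 46 genes, against 7.92% of all genes tested, and 25 of the 46 lay in the highest 10% of all fold changes. The lowest IPI-9119 library was above the highest DMSO library for 37 of the 46, against 34% of all genes tested, and the reverse held for 4, against 33.9%. The 37 include POLD1 and the 4 include ORC3, which did not pass the test. The 46 genes together took 1411, 1414.5 and 1437 RPM (reads scaled to the size of the library) with DMSO and 2287, 2237 and 2291 RPM with IPI-9119. These sums are led by abundant genes such as RPA1 and POLD2.

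**Figure D1:**
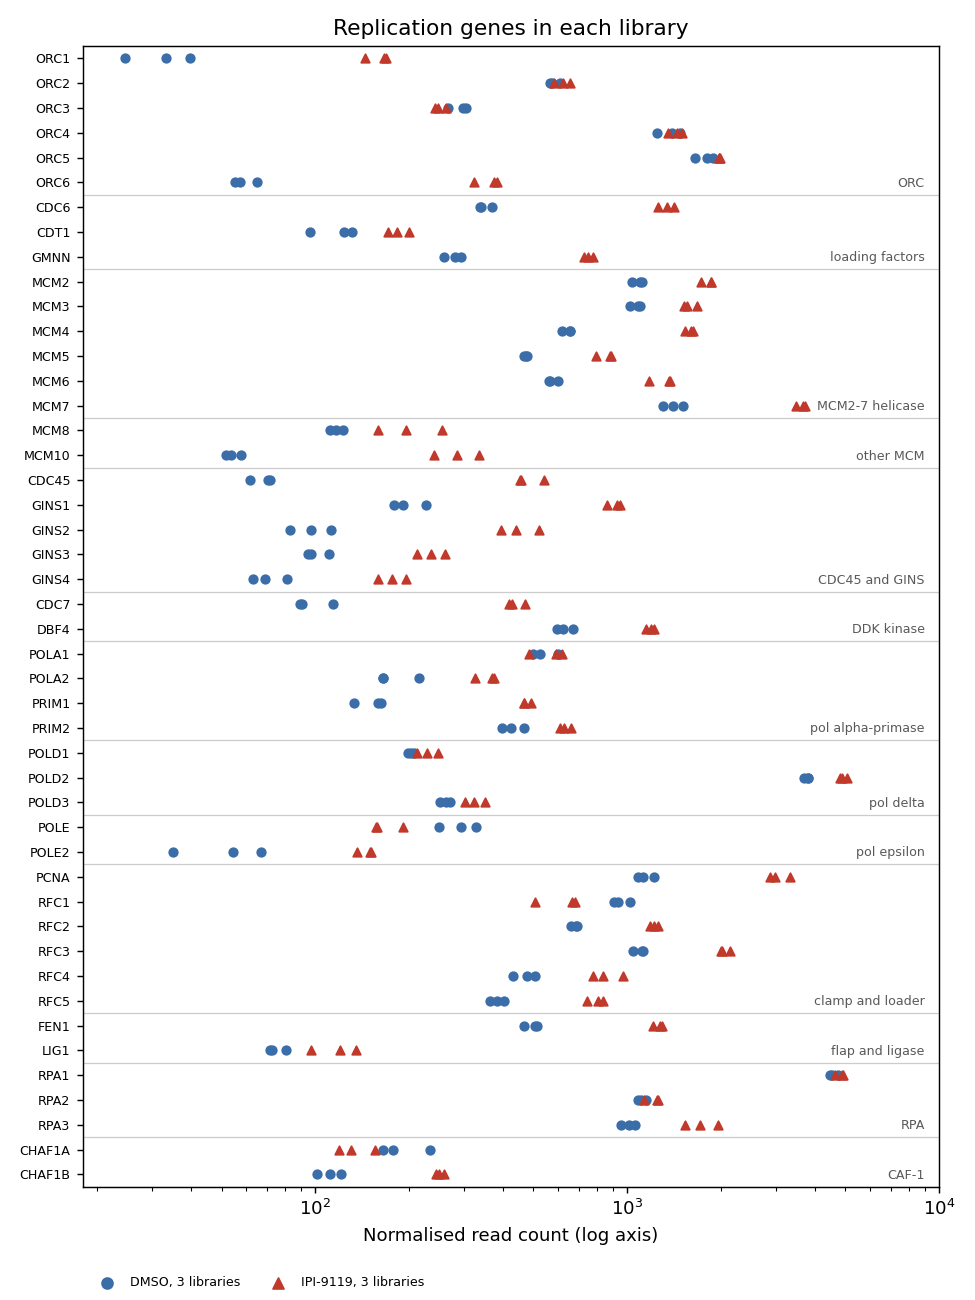
Normalised read count (log axis) of the 46 replication genes in each library, ordered by complex, with blue circles for the 3 DMSO libraries and red triangles for the 3 IPI-9119 libraries. The red triangles lie to the right of all blue circles for 37 genes and to the left for ORC3, POLE, RFC1 and CHAF1A.

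**Figure D2:**
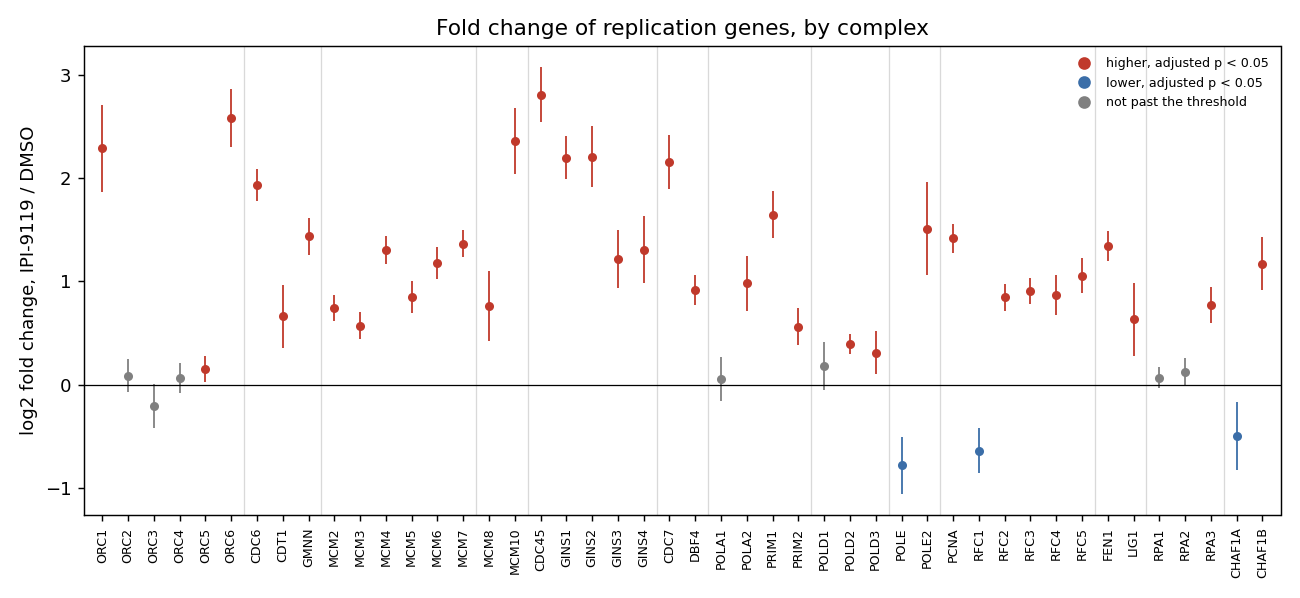
Log2 fold change of IPI-9119 over DMSO for each gene, in order of complex, with bars for the 95% confidence interval from limma (3 libraries per group). CDC45 is the highest at 2.81 and POLE the lowest at -0.78, and grey points did not pass the test.

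Within the origin recognition complex, which marks origins and starts the loading of the helicase, ORC1 and ORC6 rose steeply while the core subunits moved little. ORC1, an ATP-binding subunit that is made and destroyed in each cell cycle (ENSG00000085840, chromosome 1, 52372829 to 52404459, minus strand, GRCh38), had normalised counts of 33.1, 24.5 and 39.5 with DMSO and 166, 168 and 144 with IPI-9119. The groups did not overlap, and the log2 change was 2.29 ± 0.19 SE, adjusted p 1.8e-07. ORC6, the smallest subunit and a part that helps recruit the MCM ring (ENSG00000091651, chromosome 16, 46689643 to 46698394, plus strand), had 57.2, 65.1 and 55.1 with DMSO and 382, 323 and 373 with IPI-9119, a log2 change of 2.58 ± 0.13 SE, adjusted p 9.1e-10. All IPI-9119 libraries of ORC6 lay far above all DMSO libraries. Both genes started low, at 10.3 (ORC1) and 13.7 (ORC6) normalised counts per kb of exon with DMSO, against 78.5 to 478 per kb for ORC2 to ORC5.

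ORC2, ORC3, ORC4 and ORC5, which form the stable core of the complex, stood near their DMSO level. ORC2 had normalised counts of 608, 566 and 576 with DMSO and 584, 653 and 622 with IPI-9119, and the groups overlapped (log2 fold change 0.09, 95% interval -0.07 to 0.25, adjusted p 0.328). ORC4 also overlapped, with a log2 fold change of 0.06 (95% interval -0.08 to 0.21, adjusted p 0.437). ORC3 was lower in each IPI-9119 library but did not pass, at 305, 267 and 297 with DMSO and 261, 248 and 242 with IPI-9119 (log2 fold change -0.21, adjusted p 0.083). After a correction for exonic length and GC content ORC3 was at -0.48 and past the threshold (adjusted p 2.6e-04). ORC5 rose slightly, from 1778 ± 119 with DMSO to 1974 ± 3.64 with IPI-9119 (mean normalised count ± SD, n = 3), a log2 change of 0.15 ± 0.06 SE, adjusted p 0.0318. The call for ORC5 did not survive removal of DMSO replicate 1, DMSO replicate 2, IPI-9119 replicate 2 or IPI-9119 replicate 3, with adjusted p-values of 0.0572, 0.173, 0.0761 and 0.0716, and its log2 fold change was 0.10 without DMSO replicate 2. With the correction its sign turned (-0.11, adjusted p 0.0894). Relative to ORC2, the ratio of ORC6 counts was 0.0941, 0.115 and 0.0957 with DMSO and 0.653, 0.494 and 0.599 with IPI-9119, 5.72-fold higher on average.

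The loading factors all rose, including the inhibitor among them. CDC6, the ATPase that joins the origin recognition complex to load the helicase (ENSG00000094804, chromosome 17, 40287633 to 40304657, plus strand), had normalised counts of 339.6, 338 and 369 with DMSO and 1339, 1257 and 1409.9 with IPI-9119. Its groups lay far apart, with a log2 change of 1.93 ± 0.07 SE, adjusted p 5.3e-11. GMNN, which encodes geminin, the protein that binds CDT1 and blocks a further round of loading, had 294, 259 and 280.1 with DMSO and 775, 726 and 751 with IPI-9119 (log2 change 1.43 ± 0.08 SE, adjusted p 3.1e-09). CDT1, the partner that brings the MCM ring to origins, rose least of these, at 123, 131 and 96.4 with DMSO and 171, 182 and 200.2 with IPI-9119 (log2 change 0.66 ± 0.14 SE, adjusted p 0.00107). The ratio of CDT1 to GMNN counts was 0.419, 0.507 and 0.344 with DMSO and 0.220, 0.251 and 0.266 with IPI-9119. The ratio was thus lower in each IPI-9119 library than in any DMSO library. Ratios of counts, not of levels per kb, were tested for 9 pairs of genes, which are those given here and ORC1 to ORC2. These pairs were not among the planned tests. Each ratio follows from the values given for its genes, so its test adds no separate support to them. For each pair an exact permutation test over the libraries (two-sided) gave p = 0.1, the smallest that 3 against 3 libraries allow.

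All 6 subunits of the MCM2-7 ring, the motor of the replicative helicase, rose with no overlap of the groups, and their log2 fold changes ran from 0.57 to 1.36 (median 1.01). MCM7 (ENSG00000166508, chromosome 7, 100092728 to 100101940, minus strand) had normalised counts of 1305, 1405 and 1508 with DMSO and 3711, 3469.6 and 3671 with IPI-9119, a log2 change of 1.36 ± 0.06 SE, adjusted p 2.1e-10. MCM4 had 655, 656 and 619 with DMSO and 1606, 1532 and 1629 with IPI-9119 (log2 change 1.30 ± 0.06 SE, adjusted p 4.1e-10). MCM6 had 566, 559.5 and 599.7 with DMSO and 1368, 1178 and 1363 with IPI-9119 (log2 change 1.18 ± 0.07 SE, adjusted p 7.7e-09). In these 3 genes the groups lay far apart relative to the spread within them. MCM3 and MCM2 rose least, MCM3 from 1068 ± 41.5 with DMSO to 1586 ± 82.0 with IPI-9119 (mean normalised count ± SD, n = 3) and MCM2 from 1085 ± 39.7 with DMSO to 1810.4 ± 78.0 with IPI-9119 (mean normalised count ± SD, n = 3), log2 fold changes of 0.57 and 0.74. MCM5 rose by 0.85 on the log2 scale, and by 1.31 after the correction for length and GC content. The 95% intervals of MCM3 (0.44 to 0.70) and MCM7 (1.24 to 1.49) did not overlap. The 6 genes together took 241, 255 and 257 RPM with DMSO and 502, 494 and 527 RPM with IPI-9119.

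MCM8 and MCM10 carry the MCM name but are not part of the ring. MCM10, which helps the assembled helicase to start and links it to polymerase alpha, had normalised counts of 51.8, 53.8 and 57.9 with DMSO and 239, 285 and 334 with IPI-9119, a log2 change of 2.36 ± 0.15 SE, adjusted p 8.6e-09. MCM8, which acts with MCM9 in homologous recombination, rose less, at 122, 111 and 117 with DMSO and 159, 254 and 195 with IPI-9119 (log2 change 0.76 ± 0.16 SE, adjusted p 7.4e-04). The IPI-9119 libraries of MCM8 differed among themselves, replicate 2 being the highest and replicate 1 the lowest.

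CDC45 and the GINS subunits, which join the MCM ring to make the active helicase, all rose at least 2-fold (log2 fold changes 1.22 to 2.81, median 2.20). CDC45 (ENSG00000093009, chromosome 22, 19479459 to 19520612, plus strand) had normalised counts of 61.7, 71.7 and 70.7 with DMSO and 541, 452 and 456 with IPI-9119. That is the largest change among the 46 genes under the main test, a log2 change of 2.81 ± 0.12 SE, adjusted p 2.2e-10 (95% interval 2.54 to 3.07). GINS1 had 191, 226 and 178 with DMSO and 947, 925 and 859 with IPI-9119 (log2 change 2.20 ± 0.10 SE, adjusted p 2.6e-10), and GINS2 had 96.5, 83.0 and 112 with DMSO and 522, 438 and 395 with IPI-9119 (log2 change 2.21 ± 0.14 SE, adjusted p 7.5e-09). GINS3 and GINS4, the remaining subunits of the GINS complex, rose by less, GINS3 from 101 ± 8.62 with DMSO to 235 ± 24.2 with IPI-9119 (mean normalised count ± SD, n = 3) and GINS4 from 71.1 ± 9.27 with DMSO to 177 ± 18.3 with IPI-9119 (mean normalised count ± SD, n = 3). Their log2 fold changes were 1.22 and 1.30, and their 95% intervals (0.94 to 1.497 and 0.98 to 1.63) lay below those of GINS1 (1.99 to 2.41) and GINS2 (1.91 to 2.501). GINS4, GINS3 and MCM2 overlap an antisense gene over 21.2%, 10.9% and 22.7% of their exonic length, and without a stated strand setting reads of the pair cannot be told apart.

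The kinase that fires origins rose in both its parts. CDC7, the catalytic subunit, had normalised counts of 89.4, 114 and 90.9 with DMSO and 470.2, 418 and 426 with IPI-9119, a log2 change of 2.15 ± 0.12 SE, adjusted p 2.9e-09. DBF4, the activating subunit, started from a higher level and rose by less, at 620.3, 597 and 669.5 with DMSO and 1194, 1146 and 1221 with IPI-9119 (log2 change 0.92 ± 0.07 SE, adjusted p 4.2e-08). The ratio of CDC7 to DBF4 counts was 0.144, 0.191 and 0.136 with DMSO and 0.394, 0.364 and 0.349 with IPI-9119.

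The polymerases gave unequal changes within each complex. In polymerase alpha-primase, which makes the RNA-DNA primers, PRIM1, the catalytic primase subunit, had normalised counts of 133, 162 and 159 with DMSO and 490.2, 467 and 465 with IPI-9119 (log2 change 1.64 ± 0.11 SE, adjusted p 9.9e-09). POLA2, the regulatory B subunit, rose from 181 ± 29.2 with DMSO to 356 ± 28.1 with IPI-9119 (mean normalised count ± SD, n = 3, log2 fold change 0.98), and PRIM2, the large primase subunit, from 429 ± 34.9 with DMSO to 632 ± 25.8 with IPI-9119 (mean normalised count ± SD, n = 3, log2 fold change 0.56). POLA1, the catalytic polymerase subunit, had 497, 527 and 599 with DMSO and 483, 589 and 617 with IPI-9119, with overlapping groups (log2 fold change 0.05, 95% interval -0.16 to 0.27, adjusted p 0.659). The ratio of PRIM1 to POLA1 counts was 0.268, 0.308 and 0.265 with DMSO and 1.02, 0.793 and 0.754 with IPI-9119. PRIM1 and POLA2 share 14.9% and 35.1% of their exonic length with another annotated protein-coding gene on the same strand, so their levels are less certain. PRIM2 was at 0.33 after the correction for length and GC content (adjusted p 0.00133).

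Polymerase epsilon, which extends the leading strand, showed changes in opposite directions. POLE, the catalytic subunit (ENSG00000177084, chromosome 12, 132623753 to 132687365, minus strand), had normalised counts of 249.4, 326 and 293 with DMSO and 157, 156 and 191 with IPI-9119 and fell, a log2 change of -0.78 ± 0.13 SE, adjusted p 1.1e-04. POLE2, its B subunit (ENSG00000100479, chromosome 14, 49643555 to 49688422, minus strand), had 54.5, 34.9 and 67.0 with DMSO and 149.7, 151 and 136 with IPI-9119 and rose (log2 change 1.51 ± 0.21 SE, adjusted p 2.3e-05). The groups did not overlap for either gene, and the ratio of POLE2 to POLE counts was 0.219, 0.107 and 0.229 with DMSO and 0.953, 0.965 and 0.713 with IPI-9119, 4.97-fold higher on average. POLE has the longest exonic length of the 46 genes, 16609 nt, and after the correction for length and GC content its log2 fold change was 0.05 and no longer past the threshold (adjusted p 0.714). POLE2 stayed higher at 1.27 (adjusted p 2.9e-05).

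Polymerase delta, which extends the lagging strand, changed little. POLD2, the B subunit and the most abundant per kb of the polymerase genes, rose from 3757 ± 58.3 with DMSO to 4934 ± 135 with IPI-9119 (mean normalised count ± SD, n = 3), a log2 change of 0.39 ± 0.05 SE, adjusted p 3.6e-06. POLD3, which binds PCNA, rose from 261 ± 10.1 with DMSO to 325 ± 24.5 with IPI-9119 (mean normalised count ± SD, n = 3, log2 change 0.31 ± 0.10 SE, adjusted p 0.0125). Its call was lost without IPI-9119 replicate 2 (adjusted p 0.0643) and after the correction (adjusted p 0.172). POLD1, the catalytic subunit, had normalised counts of 206, 203 and 197 with DMSO and 229, 212 and 247 with IPI-9119. These groups did not overlap but lay close together, and POLD1 did not pass (log2 fold change 0.18, 95% interval -0.05 to 0.41, adjusted p 0.165). It passed after the correction for length and GC content (0.79, adjusted p 6.7e-06) and with quantile scaling (0.30, adjusted p 0.0261).

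The sliding clamp and the small subunits of its loader rose, and the large subunit of the loader fell. PCNA, the ring that tethers polymerases to DNA (ENSG00000132646, chromosome 20, 5114953 to 5126626, minus strand), had normalised counts of 1219, 1086 and 1128 with DMSO and 3335, 2974 and 2875 with IPI-9119, a log2 change of 1.42 ± 0.07 SE, adjusted p 3.7e-10. RFC2, RFC3, RFC4 and RFC5, the small subunits that the RFC loader shares with related clamp loaders, rose by 0.85, 0.91, 0.87 and 1.05 on the log2 scale, with 95% intervals that overlap each other. RFC3, the most abundant of these per kb, rose from 1092 ± 44.3 with DMSO to 2049 ± 77.5 with IPI-9119 (mean normalised count ± SD, n = 3). RFC1, the large subunit that is specific to the PCNA loader (ENSG00000035928, chromosome 4, 39287456 to 39366375, minus strand), had 932, 1024 and 906 with DMSO and 507, 678 and 665 with IPI-9119 and fell (log2 change -0.64 ± 0.10 SE, adjusted p 1.1e-04). All 3 IPI-9119 libraries of RFC1 were below all DMSO libraries, replicate 1 being the lowest. After the correction for length and GC content the value for RFC1 was -0.74 (adjusted p 1.2e-06). The ratio of RFC4 to RFC1 counts was 0.512, 0.493 and 0.477 with DMSO and 1.91, 1.15 and 1.26 with IPI-9119.

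The genes that finish Okazaki fragments rose. FEN1, the flap endonuclease, had normalised counts of 514, 507 and 467 with DMSO and 1289, 1214 and 1278 with IPI-9119 (log2 change 1.35 ± 0.07 SE, adjusted p 8.8e-10). LIG1, the ligase that seals the nicks, was low throughout, at 71.5, 80.2 and 72.6 with DMSO and 120.2, 135 and 96.8 with IPI-9119 (log2 change 0.63 ± 0.16 SE, adjusted p 0.00386). The rise of LIG1 was larger after the correction (0.97). FEN1 shares 6.7% of its exonic length with TMEM258 on the opposite strand and 1.98% with the abundant gene FADS2.

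Of the 3 genes of RPA, which coats single-stranded DNA, RPA3 rose and RPA1 and RPA2 did not pass the test. RPA3, the smallest subunit, had normalised counts of 1014, 957 and 1056 with DMSO and 1956, 1527 and 1706 with IPI-9119 (log2 change 0.77 ± 0.08 SE, adjusted p 1.4e-06). RPA1, the large DNA-binding subunit and one of the most abundant of the 46 genes per kb, had 4550.4, 4481 and 4729 with DMSO and 4871, 4915 and 4631 with IPI-9119, with overlapping groups (log2 fold change 0.07, 95% interval -0.03 to 0.17, adjusted p 0.224). RPA2, the subunit phosphorylated in S phase and after damage, overlapped too (log2 fold change 0.12, 95% interval -0.01 to 0.26, adjusted p 0.104). RPA2 passed without IPI-9119 replicate 2 (0.17, adjusted p 0.0457) and with quantile scaling (0.15, adjusted p 0.0495). The ratio of RPA3 to RPA1 counts was 0.223, 0.214 and 0.223 with DMSO and 0.402, 0.311 and 0.368 with IPI-9119.

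The subunits of CAF-1, the histone chaperone that travels with PCNA, moved in opposite directions. CHAF1B, the middle subunit, had normalised counts of 121, 111 and 101 with DMSO and 258, 244 and 249.7 with IPI-9119 and rose (log2 change 1.17 ± 0.12 SE, adjusted p 1.1e-06). CHAF1A, the large subunit, had 164, 233 and 177 with DMSO and 119, 129.8 and 155 with IPI-9119 and fell (log2 change -0.50 ± 0.15 SE, adjusted p 0.0111). DMSO replicate 2 was the highest library for CHAF1A, and without it the value was -0.35 and not past the threshold (adjusted p 0.0715). The ratio of CHAF1B to CHAF1A counts was 0.734, 0.478 and 0.570 with DMSO and 2.17, 1.88 and 1.61 with IPI-9119.

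A pattern across these fork complexes was seen after their values were known and is given as a description. In polymerases alpha, delta and epsilon, the RFC loader, RPA and CAF-1, the subunit with the longest coding sequence was not higher in any of the 6 (POLA1, POLD1, POLE, RFC1, RPA1 and CHAF1A), with log2 fold changes from -0.78 to 0.18 and 3 of them lower. Of the 13 other subunits listed for these complexes 12 rose and 1 (RPA2) did not pass, with log2 fold changes from 0.12 to 1.64. Smaller subunits outside the 46 genes were mixed. POLE3 (0.66) and POLE4 (0.57) of polymerase epsilon rose. POLD4 of polymerase delta (-0.09, adjusted p 0.325) and RBBP4 of CAF-1 (-0.09, adjusted p 0.0707) did not pass. After the correction for length and GC content POLD1 was higher, RFC1 and CHAF1A were lower and POLA1, POLE and RPA1 were not past, while 11 of the 13 others were higher. The pattern did not extend to the origin recognition complex, where ORC1 has the longest coding sequence and rose. It did not extend to MCM2-7 either, where all 6 rose. In the remaining groups of listed genes the member with the longest coding sequence rose too. These members were CDC45 beside GINS (log2 fold change 2.81), CDC6 of the loading factors (1.93) and DBF4 beside CDC7 (0.92). The same held for MCM8 beside MCM10 (0.76) and LIG1 beside FEN1 (0.63).

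**Figure D3:**
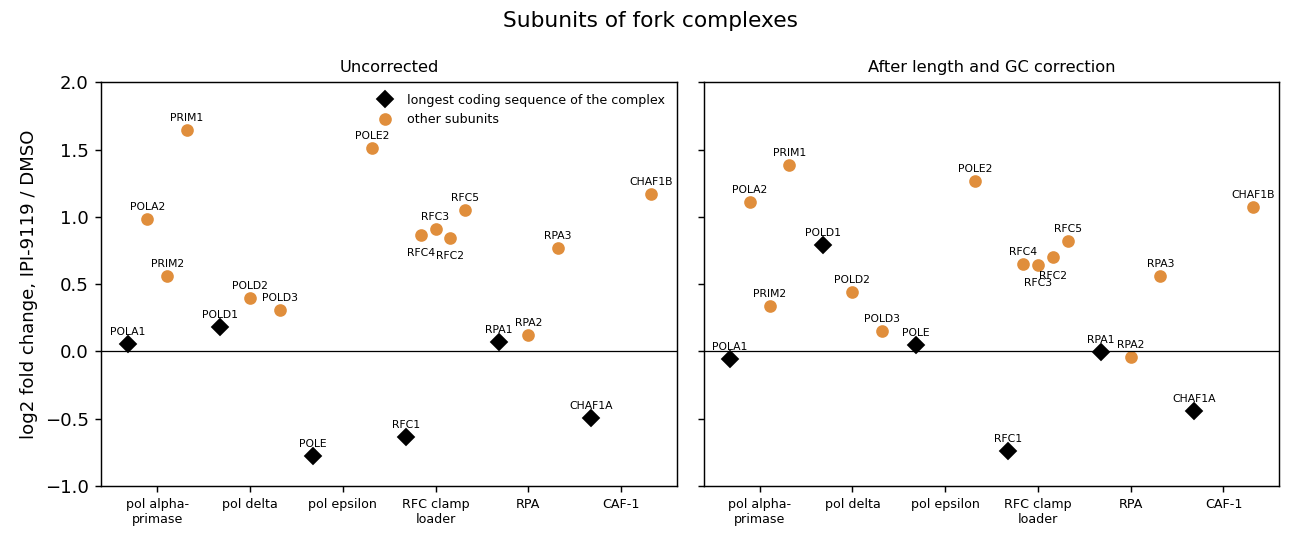
Log2 fold change of IPI-9119 over DMSO for the listed subunits of 6 fork complexes, before (left) and after (right) a correction for exonic length and GC content, with black diamonds for the subunit with the longest coding sequence and orange circles for the others. On the left the diamonds lie between -0.78 and 0.18, and on the right POLE moves to 0.05 and POLD1 to 0.79.

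Exonic length moved with the fold change among these genes. Across the 46 genes the fold change and the log2 exonic length had Pearson's r = -0.38 and Spearman's rho = -0.39, and across all 14386 genes with a length and GC value r = -0.14 and rho = -0.17. These correlations are across genes, which share their libraries and are not independent replicates. Of the 15 shortest of the 46 genes 14 rose (median log2 fold change 1.35). Of the 16 in the middle 13 rose and 1 fell (0.83), and of the 15 longest 9 rose and 2 fell (0.63). Among all genes tested with a length, 34.3% of the 4797 shortest (up to 3348 nt) were higher and 19.6% lower. Of the 4797 in the middle 33.4% were higher and 32.0% lower. Of the 4798 longest (from 6186 nt) 26.4% were higher and 42.8% lower. With the correction for length and GC content 35 of the 46 genes were higher, 3 lower and 8 not past, against 30.7% higher and 34.1% lower over all genes, and their median was 0.92. The 3 lower genes were then ORC3, RFC1 and CHAF1A. Genes that were low with DMSO tended to rise more (rho = -0.51 between the DMSO level and the fold change). Over all 14386 genes rho was -0.13, and both quantities use the DMSO libraries.

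**Figure D4:**
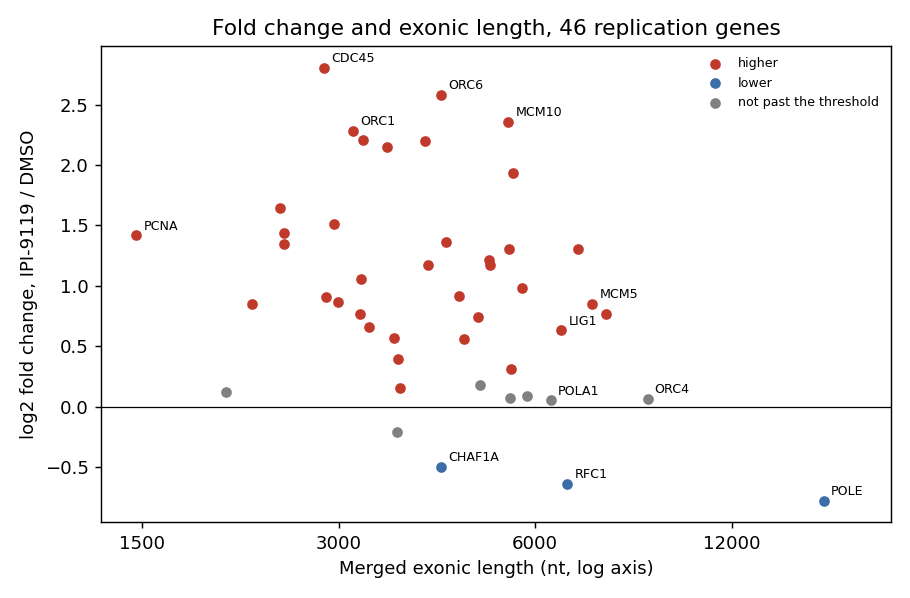
Log2 fold change of IPI-9119 over DMSO against merged exonic length (log axis) for the 46 replication genes, coloured by call, with some genes named. The longest gene, POLE at 16609 nt, is also the lowest at -0.78, and PCNA, the shortest at 1471 nt, lies at 1.42.

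Other replication genes were read from a further list of 55 genes for origin firing, fork protection, alternative clamp loaders, RNA removal, histone supply and the control of licensing. That list too was chosen with earlier results of these data known. Of the 55 genes 35 were higher, 11 lower and 9 not past (median log2 fold change 0.47), beside 31.3% higher and 31.4% lower over all genes. PCLAF, which binds PCNA, rose from 84.1 ± 5.64 with DMSO to 606 ± 68.5 with IPI-9119 (mean normalised count ± SD, n = 3), a log2 change of 2.83 ± 0.11 SE, adjusted p 1.0e-10. ASF1B, the chaperone that hands histones to CAF-1, rose from 100.2 ± 13.1 with DMSO to 512 ± 19.98 with IPI-9119 (mean normalised count ± SD, n = 3) and CCNE2, encoding cyclin E2, from 73.5 ± 15.4 with DMSO to 373 ± 18.5 with IPI-9119 (mean normalised count ± SD, n = 3). TOP2A, the topoisomerase that untangles replicated DNA, rose by a log2 fold change of 2.28, DTL, the adaptor that directs CDT1 to degradation, by 2.22, and the transcription factor E2F1 by 2.06.

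The lower genes of that list included several general factors. DNMT1, the methyltransferase that copies DNA methylation at the fork, fell from 775 ± 68.9 with DMSO to 365 ± 74.3 with IPI-9119 (mean normalised count ± SD, n = 3, log2 change -1.10 ± 0.14 SE, adjusted p 2.5e-05). TOP1, the topoisomerase that relieves supercoils ahead of the fork, fell from 3891 ± 283 with DMSO to 2144 ± 235 with IPI-9119 (mean normalised count ± SD, n = 3, log2 fold change -0.86). LIG3, a ligase of base excision repair and mitochondria, and SUPT16H, a subunit of the histone chaperone FACT, fell too, with log2 fold changes of -0.86 and -0.54. After the correction for length and GC content the falls of DNMT1 (-0.52) and LIG3 (-0.50) were smaller. Those of TOP1 (-1.12) and SUPT16H (-0.57) were not, and each of these genes stayed past the threshold. CHTF18, the large subunit of an alternative PCNA loader, stood at -0.55 on the log2 scale (adjusted p 0.00403), and at 0.20 (adjusted p 0.278) once exonic length and GC content were corrected for. TONSL, which protects stalled forks, stood at -0.50 (adjusted p 0.0353), and at 0.29 with that correction (adjusted p 0.155). Without IPI-9119 replicate 1 TONSL stood at -0.29. Its call also failed on removal of any DMSO replicate or of IPI-9119 replicate 1, with adjusted p-values of 0.0584, 0.0674, 0.107 and 0.163.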

How the data were processed

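The deposited values are read as signal: the numbers show that the authors scaled whole gene counts by 1 constant per library. Per the submitters' processing notes GRCh38, STAR 2.5.2b, Trimmomatic 0.36, DESeq2, Subread 1.5.2 and featureCounts were used, with no role or order given. For annotation release and strand setting, nothing is given in the sources used here. The values were whole multiples of 1 read (100% within 0.01 read), which gave back 19090749 to 23448035 reads per library, and the lowest gene total was 61 reads. Groups came from the sample titles, since the treatment protocol names IPI-9119 for every sample.

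The main test was limma 3.58.1 (R 4.3.3; trend and robust moderation) on log2(value + 1), over the 14437 genes whose mean reached 10, IPI-9119 against DMSO, with Benjamini-Hochberg adjustment over all of them and 2-sided p-values. Fold changes on that scale understate those of low genes. edgeR 4.0.16 (quasi-likelihood) and DESeq2 1.42.0 on the recovered reads were alternatives. The length and GC correction removed from each library what natural splines of log2 exonic length and GC percent, and their product, fitted to its differences from the gene means (4 degrees of freedom per spline, GENCODE 29, GRCh38). Exonic length merges all annotated exons of a gene, and levels are compared between genes only per kb of it. The tests were checked on simulated counts first. The members and lists were chosen with earlier results of these data known. All 46 members were named, and from the further list the 6 called genes with the largest rise and the 6 with the largest fall, with the markers KLK3 and FOLH1. From the further list POLD4, POLE3, POLE4 and RBBP4 were named as well, as subunits of the fork complexes. One marker result is not reported here.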

Additional observations from a re-analysis of the deposited data

How the results depend on the processing

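Alternatives were pseudocounts of 0.5 and 8, no filter and a mean of at least 50, TMM and quantile scaling, limma with no trend and no robust moderation, edgeR, DESeq2, a replicate block, the length and GC correction alone and with the block, and leaving out each library. Under these 35 to 38 of the 46 genes were higher and 2 or 3 lower, and the median of all genes moved by less than 0.1 with TMM scaling, quantile scaling and the correction. Leaving out 1 library gave 35 to 36 higher and a median log2 fold change of 0.87 to 0.93, the highest without IPI-9119 replicate 2. The call and direction of 35 of the 46 genes held under every alternative. The sign turned with the length and GC correction, alone or with the block, for ORC2 (-0.092), ORC4 (-0.012), ORC5 (-0.11), POLA1 (-0.055), POLE (0.049), RPA1 (-0.0062), RPA2 (-0.043), CHTF18 (0.20) and TONSL (0.29). The cause was not tested. It also turned for ORC4 without DMSO replicate 2 (-0.0015, to 0.12 without DMSO replicate 3), and for POLA1 without DMSO replicate 1 (-0.0043) or IPI-9119 replicate 3 (-0.016, to 0.16 without IPI-9119 replicate 1). ORC5 also lost its call with DESeq2 (adjusted p 0.0536) and with no trend and no robust moderation (0.0971), as did TONSL (0.0683 and 0.0605). The replicate block left 36 members higher and 3 lower, and moved all genes called to 4797 higher and 4799 lower from 4522 and 4539. The deviations of same-numbered libraries correlated at 0.14, 0.063 and 0.0044, not all above 0.1, so the numbers were not taken as pairs, and not every library correlated best with its own number. Genes with few reads, such as ORC1 with 26 in DMSO replicate 2, are measured least precisely.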

Other observations

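Levels of the subunits of a complex, compared per kb of exonic length, were unequal and changed their spread. In the origin recognition complex ORC5 was the most and ORC1 the least abundant subunit in each library, at a ratio of 46.1, 57.0 and 40.5 with DMSO and of 10.1, 9.95 and 11.6 with IPI-9119. In the MCM2-7 ring MCM7 was the highest and MCM5 the lowest in each library, at a ratio of 4.69, 4.96 and 5.28 with DMSO and 7.003, 7.32 and 6.97 with IPI-9119. In the RFC loader the lowest subunit was RFC5 in the DMSO libraries and RFC1 in the IPI-9119 libraries, and RFC3 was the highest in all 6. Its ratio of highest to lowest was 3.15, 3.46 and 3.09 with DMSO and 9.86, 6.88 and 7.07 with IPI-9119. In RPA the ratio of RPA1 to RPA3 per kb was 2.64, 2.76 and 2.63 with DMSO and 1.47, 1.89 and 1.60 with IPI-9119. The spread among subunits was thus narrower with IPI-9119 in the origin recognition complex and RPA and wider in MCM2-7 and RFC, with no overlap of the groups. Merged exonic length can exceed that of the transcripts used, so the order of the subunits is less certain than the change of a ratio between the groups.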
